A study of Mus musculus with 4 samples.

Results

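Intergenic CTCF binding sites over 50 kb from any annotated transcript start were examined in mouse liver at ZT0 and ZT12. A site was included when its midpoint lay in no gene body of the GENCODE annotation of mm9 (NCBIM37) and over 50 kb from the nearest annotated transcript start, on an autosome. Under this rule, 673 of 10038 autosomal ZT0 sites (6.71%, 95% Wilson confidence interval 6.23 to 7.21%) and 413 of 6756 autosomal ZT12 sites (6.11%, 5.57 to 6.71%) were members, called distal sites here. Livers came from wild-type male C57BL/6 mice labelled as 8 weeks old, the age at which, by the study's methods, they entered 2 weeks of equal periods of light and dark with free access to food, with no genetic or drug treatment. ZT0 is the time of lights on and ZT12 the time of lights off, and CTCF was immunoprecipitated from 2 biological replicates per time point. The study reports that CTCF was profiled in the liver samples that also served for Hi-C, for which livers were pooled in pairs. For each time point there is a single list of peak positions for both replicates, without score, strand or replicate, so no spread between replicates could be given, the depth behind a site is unknown, and all intervals below are 95% Wilson intervals that cover counting error only. The lists are labelled as following a motif search and hold far fewer sites than the study counts in total, so a site absent from a list may still have been bound or called, and every shared percentage, density, spacing and occupancy below describes the listed sites alone. Sites are not replicates of a time point, and no difference given here was tested.

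CTCF is a zinc finger protein that recognises a long, non-palindromic DNA sequence. On chromatin it halts cohesin, the ring complex that extrudes DNA loops, and loop ends in mammalian cells tend to carry CTCF motifs that face each other. Stretches without genes, called gene deserts, often flank developmental genes and can hold their distant enhancers, and CTCF sites within them can mark the borders of chromatin domains.

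At ZT0, 316 of the 673 distal sites overlapped a ZT12 site by at least 1 bp (47.0%, 43.2 to 50.7%), against 56.4% of all autosomal ZT0 sites. At ZT12, 316 of the 413 distal sites overlapped a ZT0 site (76.5%, 72.2 to 80.4%), against 83.9% of all autosomal ZT12 sites. The remaining 357 distal sites were ZT0-only and 97 were ZT12-only. The percentages of the time points differ because the same shared sites are divided by lists of different length. With the ZT0 list cut to its widest sites, 62.6% of distal sites were shared at ZT0 and 55.2% at ZT12, so the order of the time points was reversed by a cut that changed both the length of the list and the width of its sites. In both lists the distal sites were therefore shared less often than the sites of the list as a whole, and the interval of the distal sites did not reach the value of the whole list. Intergenic sites 1 to 50 kb from a start were shared in 58.6% of cases at ZT0 and 83.6% at ZT12, and sites within 1 kb of a start in 62.4% and 92.6%. Intronic sites, shared in 52.2% (50.5 to 54.0%) of cases at ZT0 and 79.1% (77.3 to 80.8%) at ZT12, came closest to the distal sites. Their intervals overlapped those of the distal sites in both lists, so lower sharing was not particular to distal sites. All 316 ZT0 sites that were shared had a partner at ZT12 that was itself a distal site, so no shared site changed class between the lists. The best-scoring 19 bp was the same in 314 of these 316 pairs (99.4%). In 279 pairs (88.3%) it passed the first score limit described below in both lists.

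Distance from transcript starts ran well past the limit. The median was 81.2 kb at ZT0, with quartiles at 62.2 and 120.9 kb, and 80.5 kb at ZT12, with quartiles at 63.0 and 121.4 kb. Over 100 kb from a start lay 239 ZT0 sites (35.5%) and 152 ZT12 sites (36.8%). The rule measures distance from starts, however, and a long gene can end much closer to a site than it begins. Of the distal sites, 176 at ZT0 (26.2%) and 115 at ZT12 (27.8%) lay within 50 kb of a gene body, and 35 and 18 within 10 kb of one, so that "far from genes" holds in the strict sense for the other 497 and 298. Among the sites over 50 kb from every gene body, 44.9% (40.6 to 49.3%) were shared at ZT0 and 74.8% (69.6 to 79.4%) at ZT12. Among those within 50 kb of a gene body, 52.8% were shared at ZT0 and 80.9% at ZT12. Leaving out the sites close to gene ends thus moved the shared percentages of the distal sites by less than the width of their intervals.

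The sites nearest to the 50 kb limit are few and show only where the rule cuts. The nearest on the inside was a shared site on chromosome 1, chr1:130720903-130721141 at ZT0, 50.02 kb from the start of Gm17699, a long intergenic RNA gene, and the nearest on the outside was the ZT0-only site chr1:90353340-90353663, 49.97 kb from Spp2. Next to them were the ZT0-only sites chr8:118962909-118963161, at 50.09 kb, and chr10:95676557-95676881, at 49.75 kb. At ZT12 the members closest to the limit were the partner of the Gm17699 site, at 50.01 kb, and chr5:35817953-35818236, a site without a motif match 50.13 kb from Cpz. Just outside lay chr9:40444132-40444459, at 49.75 kb, and chr15:88481503-88481773, at 49.66 kb. All 4 of these ZT12 sites were shared, and of the 4 at ZT0 only the Gm17699 site was.

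CTCF sites thinned out with distance from transcript starts. The territory that meets the rule covers 686 Mb of sequenced autosomal DNA, 28.7% of the autosomes, and held 0.981 ZT0 sites and 0.602 ZT12 sites per Mb, where the rest of the autosomes held 5.48 and 3.71. Intergenic sequence up to 10 kb from a start held 7.18 ZT0 sites per Mb, and sequence at 10 to 50 kb held 4.49. Among the distal sites the density went on falling in each further class, with 1.83 per Mb at 50 to 100 kb, 0.798 at 100 to 200 kb, 0.328 at 200 to 500 kb and 0.0243 beyond 500 kb. At ZT12 the same classes held 1.10, 0.559, 0.145 and 0.0243 distal sites per Mb. The class beyond 500 kb covers 41.1 Mb and held 1 site in each list, and these were not the same site.

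The shared percentage was lowest in the sparsest territory. At ZT0 it was 48.2% (43.5 to 52.8%) of 434 sites at 50 to 100 kb and 52.0% (44.6 to 59.2%) of 177 sites at 100 to 200 kb, but 24.6% (15.5 to 36.7%) of 61 sites at 200 to 500 kb. At ZT12 it was 80.5% (75.2 to 84.8%) of 261 sites, 73.4% (65.0 to 80.4%) of 124 sites and 55.6% (37.3 to 72.4%) of 27 sites. In both lists, then, fewer of the sites beyond 200 kb had a counterpart, and at ZT0 their interval lay apart from those of the nearer classes. With protein-coding genes only, the rule takes in a larger set of 1037 ZT0 sites, not all of them distal sites as defined here. Its ZT0 percentage was 52.5% (48.5 to 56.5%) at 50 to 100 kb and 49.1% (43.3 to 54.9%) at 100 to 200 kb. Farther out it was 38.3% (30.8 to 46.3%) at 200 to 500 kb and 13.3% of 15 sites beyond 500 kb. In that set the interval at 200 to 500 kb overlapped that at 100 to 200 kb and lay apart from that at 50 to 100 kb. At ZT12 the same classes gave 83.1%, 74.2%, 66.3% and 22.2% of 9 sites.

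The shared sites farthest from a transcript start lay far inside gene-free stretches, and 5 are named here, from every autosome but one that was left out of all named sites, genes and intervals. The farthest, chr3:143042226-143042527, lies 295.5 kb from the small nucleolar RNA gene SNORA4 and was 302 bp wide at ZT0 and 201 bp at ZT12. On the same chromosome, chr3:31502165-31502515 lies 293.0 kb from Slc7a14, with widths of 351 and 282 bp, and chr3:66374263-66374572 lies 273.7 kb from Veph1, with widths of 310 and 272 bp. A site on chromosome 7, chr7:122360287-122360619, lies 280.4 kb from a 7SK gene and was 333 and 290 bp wide. The last, chr14:62661236-62661505, lies 250.1 kb from Rnaseh2b, which encodes a subunit of ribonuclease H2, and was 270 and 202 bp wide. Each of the 5 was narrower at ZT12 than at ZT0. The nearest other ZT0 site was 150.1 kb away for the chromosome 7 site and between 415.1 and 640.1 kb away for the other 4.

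All of these shared sites held a 19 bp match past the stricter of the score limits described below. They are shown because, on the autosomes from which sites were named, no other shared site is so remote from a start. In each sequence, read 5′ to 3′ from the NCBIM37 genome on the strand of the match, capitals mark the match and lower case the 20 bp on each side, and the position is that of the whole 59 bp.
SNORA4 side, chr3:143042328-143042386, minus strand: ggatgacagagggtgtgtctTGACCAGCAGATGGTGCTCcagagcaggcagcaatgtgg
Slc7a14 side, chr3:31502321-31502379, minus strand: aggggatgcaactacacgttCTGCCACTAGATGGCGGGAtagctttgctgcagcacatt
7SK side, chr7:122360434-122360492, plus strand: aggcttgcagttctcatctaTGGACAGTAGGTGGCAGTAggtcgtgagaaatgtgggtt
Veph1 side, chr3:66374383-66374441, plus strand: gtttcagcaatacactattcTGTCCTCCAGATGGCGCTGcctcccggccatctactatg
Rnaseh2b side, chr14:62661322-62661380, minus strand: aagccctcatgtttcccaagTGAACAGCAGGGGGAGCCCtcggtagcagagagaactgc

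The most remote sites of all were present in only one list. At ZT0 these were chr15:50093130-50093347, 565.8 kb from Trps1, a zinc finger repressor gene of skeletal development, chr14:10225916-10226292, 469.5 kb from the pseudogene Gm16543, and chr7:79012066-79012284, 439.3 kb from Mctp2. At ZT12 they were chr12:94391134-94391365, 593.7 kb from a U1 gene, chr16:40739220-40739462, 433.0 kb from a U6 gene, and chr13:39532777-39533064, 421.5 kb from another U1 gene. These 6 were picked after their distances were seen, and none had a counterpart in the other list. Of the 6, 5 held a match at the first score limit, and the chromosome 13 site did not.

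The motif was learned from the sites themselves. A 19 bp weight matrix was started from the 12 bp word most enriched in the listed sites over sequence 5 kb away, which was CCACCAGGGGGC, and refined over 3 rounds, with odd chromosomes scored by the matrix learned on even ones and even by the matrix of the odd ones. The letters with the highest weight over base composition read TGGCCACCAGGGGGCGCCA in both matrices, although at position 18 T was slightly more frequent than C, with 40.3 against 38.7% and 40.9 against 39.4%. This is the long CTCF recognition sequence. A match, defined as a score that 1 in 10000 positions of the flanking sequence passes, was present in 589 of the ZT0 distal sites (87.5%, 84.8 to 89.8%) and in 360 of the ZT12 distal sites (87.2%, 83.6 to 90.0%). Sequence of the same length 5 kb from these sites held a match in 1.71% and 1.09% of regions. A stricter score is one that about 1% of all flanking regions pass, and by that measure the share was 68.7% at ZT0 and 71.7% at ZT12. These shares resembled those of intergenic sites 1 to 50 kb from a start, of which 87.8% held a match at ZT0 and 88.7% at ZT12, and lay above those of sites within 1 kb of a start, of which 71.5% and 75.9% did.

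Shared distal sites had somewhat higher scores than the others, but they were also wider, and the part of width was not tested. A score is the best over the whole site, so a wider site offers more positions for a match. The score is a log2 likelihood ratio, and its median was 19.15 in the shared and 18.03 in the ZT0-only sites, and 19.15 and 18.04 in the shared and ZT12-only sites of the ZT12 list. At the stricter score, 73.7% (68.6 to 78.3%) of the shared and 64.2% (59.0 to 69.0%) of the ZT0-only sites had a match, and in the ZT12 list 74.1% (69.0 to 78.6%) and 63.9% (54.0 to 72.8%). At the first limit the shares were closer, with 88.3% and 86.8% at ZT0 and 88.6% and 82.5% at ZT12. Most sites found at one time point alone thus carried a recognisable CTCF motif too, but if the motif search by the authors served as a filter, that share was set by it.

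The distal sites with the highest scores came close to the motif, though each differed from its highest-weight letters at several positions. Among them the leading pair held the same 19 bp on different chromosomes. The site chr17:4778177-4778532, 100.3 kb from a U6 gene and 216.0 kb from the nearest protein-coding start, that of Arid1b, which encodes a subunit of the BAF chromatin remodelling complex, scored 25.89 and was shared, with 356 bp at ZT0 shrinking to 201 bp at ZT12. The site chr10:8435500-8435787, 62.7 kb from the miRNA gene AC091522.1, 170.2 kb from the start of Sash1 and 6.37 kb past the end of Sash1, scored 25.61 and was shared as well, with widths of 288 and 313 bp. The 3 that followed at ZT0 were all ZT0-only, namely chr17:86276761-86276992 at 162.8 kb from Srbd1, chr9:122645917-122646156 at 54.04 kb from the miRNA gene Mir138-1, and chr5:120191228-120191439 at 50.11 kb from the long intergenic RNA gene Gm16065 and 60.57 kb from Tbx3, a T-box regulator of limb and heart development. Sites of a single time point thus occur among the best matches, although scores were higher in shared sites as a whole. At ZT12 the next in line were shared sites near Smad6, chr9:63757394-63757684, and Kifc3, chr8:97727893-97728307, and then a ZT12-only site, chr8:51377630-51377856, 2419.9 kb from any other ZT12 site. The following lines show the pair with identical matches and, for contrast, 3 high-scoring sites of a single time point.
Arid1b side, chr17:4778346-4778404, plus strand, shared: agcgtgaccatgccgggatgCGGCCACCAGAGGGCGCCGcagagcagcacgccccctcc
Sash1 side, chr10:8435646-8435704, minus strand, shared: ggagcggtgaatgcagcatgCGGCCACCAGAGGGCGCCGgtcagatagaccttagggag
Srbd1 side, chr17:86276942-86277000, plus strand, ZT0-only: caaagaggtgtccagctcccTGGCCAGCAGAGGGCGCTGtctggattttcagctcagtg
Tbx3 side, chr5:120191299-120191357, plus strand, ZT0-only: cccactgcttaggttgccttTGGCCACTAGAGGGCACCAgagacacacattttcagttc
U7 side, chr8:51377664-51377722, plus strand, ZT12-only: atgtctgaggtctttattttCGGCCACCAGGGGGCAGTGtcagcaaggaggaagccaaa

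Bases outside the 19 bp were not random either. CTCF has more zinc fingers than the core motif occupies, and the outer fingers are known to touch a second, weaker sequence upstream of it. Read in the direction of the match, the ZT0 distal sites with a match had T in 49.6% of cases 9 bp before it, C in 45.2% of cases 7 bp before it and G in 41.8% of cases 13 bp before it. After the match, C stood at base 6 in 52.5% of cases and G at base 3 in 44.8%. The ZT12 distal sites gave 50.3%, 50.8% and 45.3% at the same places before the match and 50.8% and 46.4% after it. The 6 bp word most in excess before over after the match in the sites that are not distal was TGCAGT, a search added after the data were seen. Among the distal sites it occurred within 20 bp before the match in 31 of 589 at ZT0 (5.26%, 3.73 to 7.37%) and within 20 bp after it in 3 (0.509%, 0.173 to 1.49%). At ZT12 it occurred before the match in 18 of 360 (5.00%, 3.19 to 7.76%) and after it in 3 (0.833%). Most often 8 bp lay between the word and the match, in 15 of the 31 cases at ZT0. The remaining autosomal ZT0 sites held the word before the match in 5.21% of cases, and those within 1 kb of a start in 2.95% (2.20 to 3.95%), an interval that overlaps that of the distal sites. At ZT12 the value within 1 kb of a start was 3.07% (2.18 to 4.30%), which overlaps as well.

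The base composition of distal sites followed their surroundings at a distance and not close by. In 200 bp around the midpoint the median GC content was 51.0% at ZT0 and 50.5% at ZT12, against 52.0% in both lists for intergenic sites nearer to starts. Over 1000 bp it was 46.5% and 46.2%, against 48.2% and 48.4%, and in the surrounding 1 Mb 43.2% and 43.1%, against 45.4% in both lists. The distal sites thus had more GC than the average of their own neighbourhood, as did the nearer intergenic sites. The neighbourhoods of distal sites were poorer in GC than those of the nearer intergenic sites. The median number of CpG dinucleotides in 200 bp was 4 at each time point, as in nearer intergenic sites, while sites within 1 kb of a start had 11. Intergenic sequence as such had 40.8% GC at 50 to 100 kb from a start and 37.3% beyond 500 kb.

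ZT12-only distal sites were the poorest in GC. Their median in 200 bp was 46.5%, with quartiles at 43.0 and 49.5%, against 52.0% for the shared sites of the same list, and ZT0-only sites lay in between. Their 1 Mb surroundings had a median of 41.4%, against 43.4% for shared and 42.9% for ZT0-only sites. They also lay farther out, at a median of 93.2 kb from a start, where shared sites lay at 77.3 kb and ZT0-only sites at 83.5 kb. The part of sequencing depth or GC bias in these differences was not tested, since the lists hold no reads.

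Distal sites were narrower than every other class at ZT0 and close to intronic sites at ZT12. The median width at ZT0 was 284 bp (quartiles 246 and 347 bp), and the ZT12 value was 271 bp (quartiles 229 and 331 bp), where intergenic sites nearer to starts had medians of 312 and 286 bp and intronic sites 301 and 275 bp. Within the distal sites, the shared ones had a median of 317.5 bp in the ZT0 list and 284 bp in the ZT12 list, while ZT0-only sites had 259 bp and ZT12-only sites 240 bp. Width and sharing went together. In 4 classes of ZT0 width, each with about as many autosomal sites as the next, the shared share of distal sites was 23.9% (18.99 to 29.6%) up to 260 bp, 50.5% (43.4 to 57.7%) up to 313 bp, 58.9% (50.6 to 66.6%) up to 380 bp and 80.2% (71.4 to 86.8%) above. All other autosomal sites gave 32.7% (30.8 to 34.7%), 48.9%, 63.0% and 82.4% in the same classes. In the 3 wider classes the distal sites differed from the others by less than their counting error, and the narrowest class, where their intervals do not meet, held 36.7% of the distal sites but 24.2% of the others.

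Shared distal sites were mostly narrower at ZT12. Of 316 pairs, 212 were narrower at ZT12, 101 were wider and 3 had equal widths, so that 67.7% (62.4 to 72.7%) of the unequal pairs were narrower. The median change from ZT0 to ZT12 was -37 bp. The other autosomal pairs were narrower at ZT12 in 71.7% of cases with a median change of -48 bp. Midpoints of the distal pairs lay a median of 31.5 bp apart, and 95.6% of them lay within 100 bp.

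The pairs with the largest change in each direction are described next. The widest distal site at ZT0, chr5:77888943-77889796, 51.31 kb from the pseudogene Pea15b and 52.30 kb from Igfbp7, a gene for a secreted insulin-like growth factor binding protein, fell from 854 bp to 363 bp at ZT12, and its best match at ZT0 lies outside the ZT12 site. The site chr4:109723334-109723855, 72.94 kb from Dmrta2, fell from 522 to 222 bp. In the other direction, chr7:36686919-36687221, 99.06 kb from Zfp507, went from 303 bp at ZT0 to 563 bp at ZT12, and chr13:73297637-73298053, 100.1 kb from the homeobox gene Irx4, from 417 to 634 bp. The Zfp507 site also holds the upstream word and scores only 14.09, so it is set beside the Irx4 site, with a score of 22.81, and the 7SK site above.
Zfp507 side, chr7:36687036-36687094, plus strand: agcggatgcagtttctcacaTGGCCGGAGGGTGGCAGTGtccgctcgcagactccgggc
Irx4 side, chr13:73297833-73297891, plus strand: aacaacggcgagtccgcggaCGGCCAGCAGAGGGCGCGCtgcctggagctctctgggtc

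Among sites listed once, some were as wide as shared ones. The widest ZT0-only distal site was chr5:52523206-52523723, 518 bp wide and 58.29 kb from the start of Dhx15, an RNA helicase gene. After it came chr8:11942973-11943446 with 474 bp, chr16:5473481-5473929 with 449 bp, chr5:125424260-125424707 with 448 bp, near Fam101a, and chr10:66315895-66316324 with 430 bp. The widest ZT12-only site, chr8:28787527-28787956, was also 430 bp wide, and the next, chr7:71205039-71205423, was 385 bp wide and 93.49 kb from Trpm1, a cation channel gene. The other 3 were chr12:26911329-26911704 with 376 bp, near Rnf144a, chr6:72114953-72115323 with 371 bp, near St3gal5, and chr3:28064501-28064867 with 367 bp, 56.00 kb from Pld1, a phospholipase gene. All of these 10 sites were wider than the median shared site of their own list, and 9 of them held a match, the exception being the Fam101a site.

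Motif matches were scarce in distal territory, and a smaller share of them was occupied. Over the whole of that territory, 3735 genomic matches passed the stricter score, or 5.45 per Mb, against 15.7 per Mb in intergenic sequence nearer to starts. A listed ZT0 site covered 474 of the distal matches (12.7%, 11.7 to 13.8%) and a ZT12 site 308 (8.25%, 7.41 to 9.17%). In nearer intergenic sequence the shares were 24.2% and 17.2%, in gene bodies 20.1% and 13.7%, and within 1 kb of starts 42.0% and 31.5%. Scarcity of motifs and lower occupancy of the motifs present thus ran in parallel. Both continued outwards, with 15.8% of matches in a ZT0 site at 50 to 100 kb, 11.4% at 100 to 200 kb, 6.67% at 200 to 500 kb and 1 of 82 matches beyond 500 kb (1.22%, 0.216 to 6.59%). What else sets occupancy, such as DNA methylation or open chromatin, was not analysed here.

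Few distal sites lay in DNA that is repeated exactly. The match with 10 bp on each side, 39 bp in all, had another exact copy in the genome for 13 of 589 distal ZT0 sites (2.21%, 1.29 to 3.74%) and 12 of 360 at ZT12 (3.33%, 1.92 to 5.73%), against 2.71% and 3.46% of all other autosomal sites. Of these repeated sites, 11 were shared in each list, as were 162 of 214 at ZT0 and 163 of 189 at ZT12 among all other autosomal sites. The highest copy number among the distal sites was 19 at ZT0 and 17 at ZT12, against 847 and 19 among all other autosomal sites. Older, diverged repeats were not sought.

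Distal sites lay farther from other listed CTCF sites than intergenic sites nearer to starts did. The nearest listed site of the same time point, of any class, lay at a median of 81.4 kb at ZT0 and 136.6 kb at ZT12, where intergenic sites nearer to starts had medians of 28.1 and 41.5 kb. Over 300 kb from any other site were 133 ZT0 distal sites (19.8%) and 128 ZT12 distal sites (31.0%), against 4.63% and 8.31% of the nearer intergenic sites. A neighbour within 10 kb was present for 96 ZT0 distal sites (14.3%) and 47 at ZT12 (11.4%), against 28.6% and 22.6% of the nearer intergenic sites. Close neighbours were thus less frequent among distal sites, though not absent. The rule itself sets part of this, since a site within 1 kb of a start cannot lie close to one over 50 kb from every start. How much of the difference in spacing the rule accounts for was not tested.

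Where distal sites did neighbour each other, their motifs seldom faced each other. Among 123 consecutive pairs of ZT0 distal sites up to 200 kb apart, both with a match, 76 pointed the same way (61.8%, 53.0 to 69.9%), 34 pointed apart (27.6%, 20.5 to 36.1%) and 13 were convergent (10.6%, 6.28 to 17.2%). Among the other neighbouring ZT0 sites, 47.8% pointed the same way, 28.1% pointed apart and 24.1% (23.0 to 25.2%) were convergent. At ZT12, 32 of 54 distal pairs pointed the same way (59.3%, 46.0 to 71.3%) and 7 were convergent (13.0%, 6.42 to 24.4%), against 47.9% and 23.7% of other pairs. The convergent share was thus the lower one in both lists, with intervals that part at ZT0 and overlap at ZT12. Pairs differed in spacing too, with 86 of the 123 distal and 2922 of the 5316 other pairs at ZT0 within 50 kb, so the comparison was also made by distance. Within 50 kb, 9.30% (4.79 to 17.3%) of distal and 18.6% (17.3 to 20.1%) of other ZT0 pairs were convergent, and at 50 to 200 kb, a class added after the data were seen, 13.5% (5.91 to 28.0%) of 37 distal and 30.7% (28.9 to 32.6%) of other pairs. At ZT12 the values within 50 kb were 9.76% (3.86 to 22.6%) of 41 distal and 17.9% of other pairs. The 13 distal ZT12 pairs at 50 to 200 kb included 3 convergent ones (23.1%, 8.18 to 50.3%), against 29.5% of other pairs. With no limit on distance, 16.0% (11.2 to 22.2%) of 169 distal ZT0 pairs were convergent, against 25.9% of other pairs. At ZT12 it was 22.1% (14.6 to 31.9%) of 86 distal pairs against 25.8%, an interval that contains the value of the others. At the stricter score, 1 of 28 distal ZT12 pairs up to 200 kb apart was convergent (3.57%, 0.633 to 17.7%), against 23.0% (21.2 to 24.9%) of other pairs. With no limit on distance it was 19.6% (10.7 to 33.2%) against 26.2%. The intervals thus part in some settings only, so the lower convergent share is not clear at ZT12.

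Motifs pointed away from the nearest transcript start somewhat more often than towards it. Of the distal sites with a match, 265 of 589 at ZT0 (45.0%, 41.0 to 49.0%) and 161 of 360 at ZT12 (44.7%, 39.7 to 49.9%) pointed towards the nearest transcript start, compared with 48.3% and 46.8% of nearer intergenic sites. Matches on the plus strand numbered 289 of 589 at ZT0 and 190 of 360 at ZT12.

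Most gene-free intervals held no distal site. Of 3145 autosomal intervals over 100 kb without an annotated gene, 465 (14.8%) held a ZT0 distal site and 314 (9.98%) a ZT12 distal site. Of these intervals, 1921 were up to 250 kb long, and there the 50 kb rule can leave little room for a distal site. Counting intervals of any length, 404 held 1 ZT0 distal site, 88 held 2, and 28 held 3 or more, with 4 as the most. The share with a ZT0 distal site was 12.8% for intervals from 100 to 250 kb, 17.1% from there to 500 kb and 22.7% from there to 1000 kb, but 8.65% of the 104 that were longer still. At ZT12 the same classes gave 8.80%, 11.5%, 13.2% and 9.62%, so the longest class was not the lowest there. Interval lengths include unsequenced bases, which can hold no site, and how far these lower the share of the longest class was not tested. A distal site must also lie over 50 kb from every start, so shorter intervals have less room for one. How far this rule sets the rise of the share up to 1000 kb was not tested. A long interval of 2361.5 kb between Olfm4 and U1 on chromosome 14 held no listed site of any kind.

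The fullest intervals held 4 ZT0 distal sites each, and in sharing they differed. Between Dusp10, which encodes a MAP kinase phosphatase, and a U6 gene on chromosome 1, in 504.5 kb, all 4 were shared. Between Ddx11, a DNA helicase gene, and Gm10495 on chromosome 17, in 166.7 kb, 3 of 4 were shared. Between Arrdc4, an arrestin-domain gene that responds to glucose, and SNORA21 on chromosome 7, in 202.9 kb, and between 4631405K08Rik and Plxna2, a semaphorin receptor gene, on chromosome 1, in 1110.0 kb, 2 of 4 were shared. All distal ZT12 sites of these intervals were shared.

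In the Dusp10 interval the 4 sites alternated in orientation. From left to right they were chr1:186059567-186059821, chr1:186090028-186090297, chr1:186219134-186219423 and chr1:186271739-186272231, with matches on the minus, plus, minus and plus strand. Their widths at ZT0 were 255, 270, 290 and 493 bp. At ZT12 the widths were 246, 357, 348 and 289 bp, in the same order, so that the middle sites were wider and the outer sites narrower. The middle pair is convergent and the pairs to its left and right are divergent. Their distances to the nearest start ran from 132.1 to 231.9 kb. The 4 sequences show how far matches of one interval can differ.
First Dusp10 site, chr1:186059648-186059706, minus strand: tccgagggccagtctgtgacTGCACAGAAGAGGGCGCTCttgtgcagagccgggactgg
Second Dusp10 site, chr1:186090131-186090189, plus strand: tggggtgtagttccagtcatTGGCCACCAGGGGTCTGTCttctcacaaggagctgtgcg
Next Dusp10 site, chr1:186219270-186219328, minus strand: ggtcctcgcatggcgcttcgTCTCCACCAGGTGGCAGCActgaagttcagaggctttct
Last Dusp10 site, chr1:186271951-186272009, plus strand: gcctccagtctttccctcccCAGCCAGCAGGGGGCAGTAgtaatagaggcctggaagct

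The Ddx11 interval was tighter. Its ZT0 sites chr17:66558149-66558655, chr17:66570688-66570965, chr17:66583006-66583265 and chr17:66584515-66584796 had matches on the minus, minus, plus and plus strand, an arrangement with no convergent pair. The last 2 lie 1.52 kb apart, and only the left one of them was ZT0-only. Their shared neighbours were 507, 278 and 282 bp wide at ZT0 and 387, 262 and 246 bp at ZT12. The first is 1 of the sites with a repeated match, which occurs 2 times in the genome. In the Plxna2 interval, the shared sites chr1:195402197-195402449 and chr1:195415272-195415602 faced each other across 13.1 kb, with widths of 253 and 331 bp at ZT0, and 206 and 315 bp in the ZT12 list. The ZT0-only sites of that interval, chr1:195529292-195529642 and chr1:196049178-196049598, lay 193.5 kb from 4631405K08Rik and 396.6 kb from Plxna2.

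The nearest transcript start was that of a protein-coding gene for 455 ZT0 distal sites (67.6%) and 282 at ZT12 (68.3%). Small nuclear RNA genes came next, with 41 and 29 sites, and 30 ZT0 and 16 ZT12 sites were nearest to a long intergenic RNA gene. Among protein-coding genes alone, 538 (2.53% of 21281) had the nearest protein-coding start to a ZT0 distal site and 345 (1.62%) to a ZT12 distal site. Nearness along the chromosome does not say which gene a site acts on.

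Among the autosomes used for naming, Arrdc4 was the protein-coding gene with the most distal sites, with 7 at ZT0 and 4 at ZT12. To its left, chr7:75724590-75724847 and chr7:75725518-75725798 were shared, and chr7:75812150-75812409 was ZT0-only. To its right, chr7:75968182-75968445 and chr7:75974713-75975128 were shared, and chr7:75979295-75979617 and chr7:75988282-75988579 were ZT0-only. Of the shared sites the leftmost widened from 258 bp at ZT0 to 417 bp at ZT12, and the others narrowed from 281 to 208 bp, from 264 to 229 bp and from 416 to 293 bp. All ZT12 sites near Arrdc4 were thus also ZT0 sites, and their distances from its start ran from 74.2 to 165.1 kb. The shared site with the strongest match, 22.65, holds the upstream word TGCAGT, and the ZT0-only site with a score of 23.50 shows that a site of one time point can carry the better match.
Shared Arrdc4 site, chr7:75968276-75968334, minus strand: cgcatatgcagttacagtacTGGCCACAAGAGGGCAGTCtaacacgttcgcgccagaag
ZT0-only Arrdc4 site, chr7:75988429-75988487, plus strand: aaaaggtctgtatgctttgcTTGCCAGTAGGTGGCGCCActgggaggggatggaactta

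Other genes had distal sites that were all shared. G930045G22Rik had 4 at each time point, in a pair on each side of the gene, chr6:50756666-50757141 with chr6:50758152-50758440 and chr6:50887059-50887493 with chr6:50888806-50889150. They measured 476, 289, 435 and 345 bp at ZT0, and 394, 335, 391 and 285 bp at ZT12. Runx3, a transcription factor gene of T cell and neuron development, had 3, of which chr4:134622658-134623421 was among the widest distal sites, with 764 bp at ZT0 and 669 bp at ZT12. Another, chr4:134762124-134762610, lies 52.0 kb from the start of Runx3 and 7.52 kb from the nearest gene body. Dusp26, a phosphatase gene, also had 3, at chr8:32034191-32034528, chr8:32142131-32142451 and chr8:32143774-32144189, which were 338, 321 and 416 bp wide at ZT0 and 304, 268 and 331 bp at ZT12. For these 3 genes the lists of both time points agree site by site.

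At further genes the lists differed in part. Sites are counted here by the nearest protein-coding start, so a gene of another type can start closer. Fam49a had 4 sites at ZT0 and 3 at ZT12, all of the latter shared, Nav2 and S1pr1, a sphingosine 1-phosphate receptor gene of vessels and lymphocytes, had 3 and 2, all of the latter shared, and so did Sash1. Camk1g had 4 and 3, of which 2 were shared, with the ZT0-only site chr1:195266721-195267003 and the ZT12-only site chr1:195275827-195276092 on the same side of the gene, 70.4 and 79.5 kb from its start. The miRNA gene Mir205 starts closer to them, at 66.9 and 57.8 kb. The shared sites are those of the Plxna2 interval above, nearest to 4631405K08Rik and, at ZT0, 205.8 and 218.9 kb from the Camk1g start. Mki67, the gene of the proliferation marker Ki-67, had 3 and 2, of which 1 was shared. There the ZT0-only site chr7:142982684-142982939 and the ZT12-only site chr7:142984660-142984865 lay 74.8 and 76.7 kb from the start. In these last examples a site of one time point had a close neighbour, and no overlap, at the other.

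Of 18 core clock genes, 1 had the nearest protein-coding start to a distal site (5.56%, 0.988 to 25.8%), in both lists, and the interval contains the 2.53% and 1.62% of all protein-coding genes. It was Nfil3, which encodes a bZIP repressor of the clock output. The site, chr13:53192047-53192329 at ZT0 and chr13:53192153-53192353 at ZT12, is shared, 283 bp wide at ZT0 and 201 bp at ZT12, and lies 115.7 kb from the Nfil3 start and 12.5 kb from the nearest gene body. Its match, with a score of 19.60, is on the minus strand.
Nfil3 side, chr13:53192185-53192243, minus strand: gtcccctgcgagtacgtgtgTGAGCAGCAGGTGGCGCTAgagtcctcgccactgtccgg

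For other gene groups the counts are small, and for all but the receptor genes below the intervals contain the shares of all protein-coding genes. Of 35 developmental regulators in a chosen list, 2 had a ZT0 distal site (5.71%, 1.58 to 18.6%) and 1 a ZT12 distal site (2.86%, 0.506 to 14.5%), none of them shared, which holds for this list only, since Irx4 and Runx3, outside it, had shared sites. These were Lmo4, a LIM-domain gene, with chr3:144043984-144044273 at 175.9 kb, Tbx3, given above, and Bmp7, a bone morphogenetic protein gene, with the ZT12-only site chr2:172598738-172598980 at 166.7 kb, though the miRNA gene AL845460.1 starts 91.0 kb from it. Of 29 hepatocyte genes, 0 had a ZT0 distal site, with an upper bound of 11.7%, and 1 had a ZT12 distal site, namely Cps1, the first enzyme of the urea cycle, with chr1:67687078-67687310 at 517.6 kb, though a pseudogene, Kif22-ps, starts 55.6 kb from it. None of 25 adhesion and synapse genes of gene-poor regions had one in either list, with an upper bound of 13.3%. Of 1426 olfactory and vomeronasal receptor genes, 2 had one at ZT0 (0.140%, 0.0385 to 0.510%) and 3 at ZT12 (0.210%, 0.0716 to 0.617%), below the 2.53% and 1.62% of all protein-coding genes. Among these were Olfr275, with a shared site at chr4:52739617-52739836, and Olfr161, with the shared site chr16:3122767-3123309, 543 bp wide at ZT0 and 506 bp at ZT12, and the ZT12-only site chr16:3115339-3115650. The Olfr161 sites lie 469.4 and 476.9 kb from its start, though the miRNA gene AC191865.1 starts 126.5 and 134.1 kb from them. The Olfr275 site lies 98.55 kb from its start, though 4930552N02Rik starts 87.75 kb from it.

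Distal sites were found on every autosome, and their density per Mb of distal territory varied. At ZT0 it was highest on chromosome 9, with 49 sites or 1.58 per Mb, and on chromosome 7, with 39 sites or 1.34 per Mb. It was lowest on chromosome 3, with 39 sites or 0.625 per Mb, and on chromosome 14, with 25 sites or 0.635 per Mb. At ZT12 chromosome 7 was highest, with 0.861 per Mb, and chromosome 14 lowest, with 0.355. Chromosome 7 was thus near the top and chromosome 14 near the bottom at both time points, and the full order was not compared. Distal sites made up 13.4% of all ZT0 sites of chromosome 13, the largest share, and 1.46% of those of chromosome 11, which has the least distal territory in percent, 13.98% of its sequence. The shared share at ZT0 ran from 23.1% (8.18 to 50.3%) of 13 sites on chromosome 11 to 60.9% (40.8 to 77.8%) of 23 sites on chromosome 4, and these intervals overlap.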

How the data were processed

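CTCF ChIP-seq of mouse liver at ZT0 and ZT12 was used. The authors mapped reads to NCBIM37/mm9 with Bowtie2, filtered them with SAMtools, removed duplicates with Picard, called peaks with MACS2, and deposited 1 list of positions per time point for both replicates, named after a FIMO motif search. How replicates were combined is not given in the sources used here. Members and gene lists were chosen with earlier results of these data known. Classes were set by the midpoint in the order promoter (within 1 kb of a start), exon, intron, intergenic. Named sites were the 5 farthest shared, the 5 highest-scoring and the 5 widest of a single time point, the 2 nearest to 50 kb on each side, those of the 4 intervals with most ZT0 members, the largest width changes and those next to core clock genes. The farthest of any kind and all sites next to the genes named were added after values were seen. None was taken from chromosome 18. Rule, overlap and motif search were checked on simulated data. Python 3.11.15, NumPy 2.4.6, pandas 2.3.3 and numba 0.67.0 were used.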

Additional observations from a re-analysis of the deposited data

How the results depend on the processing

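Of 46 alternatives over 12 results, 30 left the result in place (a percentage or median within its interval, a count or density within 1.5 times) and 16 moved it. The number of distal sites at ZT0 and ZT12 was 1392 and 872 over 25 kb from a start, 239 and 152 over 100 kb, and 1037 and 654 with protein-coding genes only. Their shared percentage was 62.6% and 55.2% with the ZT0 list cut to its widest sites, which reverses the order of the time points, 67.8% and 88.4% when only sites above the median width were kept, and, at ZT12, 69.7% over 100 kb from a start. GC content over 1000 bp was 46.5% and 46.2%. At the stricter score 68.7% and 71.7% held a match, and 3.57% of ZT12 pairs were convergent. The cause was not tested where the alternative does not itself set the number. The count over 50 kb from a gene body was added after seeing the data.

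No paired analysis was possible because replicates cannot be told apart in the deposited positions, and for the same reason leaving out a replicate was not run. Nor was a stricter peak threshold, since no score is given. Absence from a list does not show absence of binding.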
